A study of Mus musculus with 10 samples.

Results

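RNA transcribed upstream of and antisense to highly expressed coding genes was examined in neonatal mouse testes lacking *Dis3* in germ cells. The regions were those of the deposited promoter upstream transcript (PROMPT) table whose downstream gene is protein-coding and averaged at least 100 CPM (gene counts scaled to the same total in each library) in control testes. By this rule 1459 of the 30166 regions were members (4.837%), lying on 21 chromosomes, out of 2495 coding genes at or above 100 CPM. Members were chosen by the level of the downstream gene in control testes, so that level, and the gene's own change against those same controls, are given as descriptions without a test. The antisense reads themselves were not used to choose members. The downstream genes had a median of 175.6 CPM and reached 4758 CPM in control testes.

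PROMPTs are short-lived RNAs made upstream of active transcription start sites and can run in either direction relative to the gene. The values here are the antisense reads, on the strand opposite to the gene. They are normally degraded in the nucleus by the RNA exosome, a ring of subunits whose nuclear form uses DIS3 and EXOSC10 as ribonucleases. DIS3 digests RNA from the 3′ end and also carries an endonuclease activity.

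The tested libraries came from 5 Dis3 cKO testis samples, which carried *Ddx4-Cre* and a floxed *Dis3* allele over a deleted allele (*Dis3* F/-, labelled KO). They were set against 5 control samples, siblings labelled WT. The floxed line was made in B6D2F1 zygotes, and the study's methods name no strain for the *Ddx4-Cre* mice. All mice were collected on postnatal day 4, with both testes of a mouse pooled into a library. The Cre acts in male germ cells from before birth and removes exons 4 to 6 of the floxed allele, so somatic cells of the Dis3 cKO testis keep the floxed allele intact but also carry the deleted one. Whole testis was sequenced, so that fewer cells of a type and less RNA per cell cannot be told apart.

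Windows next to the gene start are shown for the 3 members with the largest increases described below that had a RefSeq entry, and for 2 of the members with the most antisense RNA in control testes. Each runs from 250 bases before the RefSeq start towards the gene, in the sense of the gene, and stops where the PROMPT region stops. Antisense PROMPTs would be read from the complementary strand. Coordinates are GRCm38.p6, on the plus strand for chr10:111472977-111473222 (Nap1l1), chr14:27428584-27428833 (Tasor) and chr2:120628871-120629120 (Stard9), and on the minus strand for chr17:50293637-50293870 (Dazl) and chr14:52104029-52104271 (Hnrnpc). Capitals mark CCAAT, the CCAAT box bound by the factor NF-Y, and its reverse complement ATTGG.
Nap1l1: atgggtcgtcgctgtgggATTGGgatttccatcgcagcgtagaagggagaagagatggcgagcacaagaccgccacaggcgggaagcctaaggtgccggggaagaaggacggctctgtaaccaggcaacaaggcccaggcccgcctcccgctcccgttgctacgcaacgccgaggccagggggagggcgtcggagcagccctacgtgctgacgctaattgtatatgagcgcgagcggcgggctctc
Dazl: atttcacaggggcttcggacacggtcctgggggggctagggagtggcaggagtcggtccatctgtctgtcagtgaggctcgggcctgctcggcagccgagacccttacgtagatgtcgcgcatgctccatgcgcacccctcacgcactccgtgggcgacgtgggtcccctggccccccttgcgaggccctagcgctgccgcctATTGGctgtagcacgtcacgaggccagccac
Hnrnpc: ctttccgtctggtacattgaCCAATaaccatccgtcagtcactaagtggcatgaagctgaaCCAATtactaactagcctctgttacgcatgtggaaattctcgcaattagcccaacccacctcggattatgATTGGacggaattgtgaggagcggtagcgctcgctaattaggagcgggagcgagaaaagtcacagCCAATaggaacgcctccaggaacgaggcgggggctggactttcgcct
Tasor: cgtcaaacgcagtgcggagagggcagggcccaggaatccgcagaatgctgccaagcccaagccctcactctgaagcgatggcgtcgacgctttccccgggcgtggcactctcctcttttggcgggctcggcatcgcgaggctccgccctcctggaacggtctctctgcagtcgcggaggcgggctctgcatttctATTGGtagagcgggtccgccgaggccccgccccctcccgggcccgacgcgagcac
Stard9: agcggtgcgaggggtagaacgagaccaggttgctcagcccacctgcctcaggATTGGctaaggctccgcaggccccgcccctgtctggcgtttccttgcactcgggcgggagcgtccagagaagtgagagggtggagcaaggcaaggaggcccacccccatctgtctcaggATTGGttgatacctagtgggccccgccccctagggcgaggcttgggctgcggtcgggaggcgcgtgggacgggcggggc
None of these 5 windows held the TATA box letters TATAAA, the polyadenylation signal AATAAA or the 5′ splice site letters GTAAGT on either strand. They were rich in CG dinucleotides, with 24 in the 250 bases before the Nap1l1 start, 20 before Dazl, 17 before Hnrnpc, 27 before Tasor and 17 before Stard9.

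These 4 motifs were searched on both strands of the 250 bases before the start of all coding genes with a RefSeq window within 100 bases of the region's end. AATAAA and TATAAA can overlap each other. Windows were found for 872 members, with a median of 19 CG dinucleotides and a median GC content of 62.0%. TATAAA was in 7.11% of member windows, CCAAT in 38.1%, AATAAA in 10.3% and GTAAGT in 2.06%. Over all 7021 coding windows the median was 9 CG dinucleotides, and the shares were 12.6%, 37.5%, 15% and 5.07% in the same order. Windows of 1545 coding genes under 0.1 CPM in control testes had a median of 2 CG dinucleotides, with TATAAA in 26.0% and AATAAA in 24.5%. Among members, the 281 windows of PROMPTs called higher in Dis3 cKO had a median of 22 CG dinucleotides and the 514 windows of PROMPTs not called a median of 18. CCAAT was in 37.0% of the windows called higher and in 39.1% of those not called, AATAAA in 8.19% and 10.1%, and GTAAGT in 1.42% and 1.95%. A match is a description of the letters and not a binding or processing site.

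The libraries held 28538849 to 37739906 gene counts in Dis3 cKO (median 31967052) and 35391042 to 41104912 in control (median 35881148). The member regions took 33974 to 48833 counts per Dis3 cKO library and 22428 to 27407 per control library. The *Dis3* gene had 1362 to 1709 normalized counts (median 1385) in Dis3 cKO libraries against 4115 to 5161 (median 4314) in control libraries. The groups did not overlap (log2 fold change -1.62 ± 0.09 (SE), adjusted p = 3.78e-07 in edgeR's quasi-likelihood test, 3.48% of 20043 genes called lower). Summed CPM of 10 germ cell markers was 554.72 to 736.32 in Dis3 cKO and 808.83 to 984.38 in control, with 5 of the 10 called lower. Summed CPM of 10 Sertoli cell markers was 3855 to 5084 in Dis3 cKO and 3693 to 3890 in control, and that of 6 Leydig cell markers was 459.2 to 670.6 and 523.7 to 704.0. The 5 erythroid markers summed to 30.9 to 88.6 CPM in Dis3 cKO and 28.6 to 49.5 CPM in control, with Hba-a1 and Hba-a2 under 1 CPM. The 4 epididymal markers summed to 3.76 to 5.399 CPM in Dis3 cKO and 5.13 to 8.56 CPM in control, with Lcn5 and Lcn8 under 1 CPM and 1 of the 2 tested called lower.

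Processed pseudogenes are retrocopies that mostly lack a promoter of their own, and reads upstream of them set a background in which the libraries stood apart. Over the 5869 regions upstream of processed pseudogenes, summed CPM was 876.7, 372.0, 336.4, 595.9 and 584.5 in Dis3 cKO replicates 1 to 5, against 571.5, 573.7, 418.3, 325.3 and 305.1 in control replicates 1 to 5. Replicates 2 and 3 of Dis3 cKO were thus near the lowest control libraries, and replicate 1 was above every other library. The ratio of the group means was 1.261 over all replicates, 1.014 within replicates 1 to 3 and 1.873 within replicates 4 and 5. The labels name no batch that separates these replicates. The part of this background in the results below was not tested beyond the values given beside them.

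Antisense RNA of the members was higher in Dis3 cKO testes. Summed over all 1459 members, it was 1651, 1334, 1312, 1115 and 1107 CPM in Dis3 cKO replicates 1 to 5, against 725.7, 717.6, 662.3, 618.6 and 622.9 CPM in control replicates 1 to 5. The lowest Dis3 cKO library was above the highest control library. The means were 1304 ± 221.2 CPM in Dis3 cKO and 669.4 ± 50.72 CPM in control (SD, n = 5 each), a ratio of 1.947. Within replicates 1 to 3, where the pseudogene regions had a ratio of 1.014, the members' ratio was 2.041. Within replicates 4 and 5 it was 1.79, below the pseudogene ratio of 1.873.

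Per region, members held 0.8935 CPM in Dis3 cKO and 0.4588 CPM in control, a difference of 0.4347 CPM. Regions upstream of coding genes at 10 to 100 CPM (n = 4061) had a ratio of 2.052 and a difference of 0.3055 CPM per region. Regions upstream of coding genes under 0.1 CPM (n = 3558) held 0.07914 CPM in Dis3 cKO and 0.06134 CPM in control, a difference of 0.0178 CPM. For pseudogene regions the levels were 0.09424 CPM in Dis3 cKO and 0.07476 CPM in control, a difference of 0.01948 CPM. Within replicates 4 and 5 the differences were 0.3359 CPM per member region and 0.04686 CPM per pseudogene region.

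**Figure D1:**
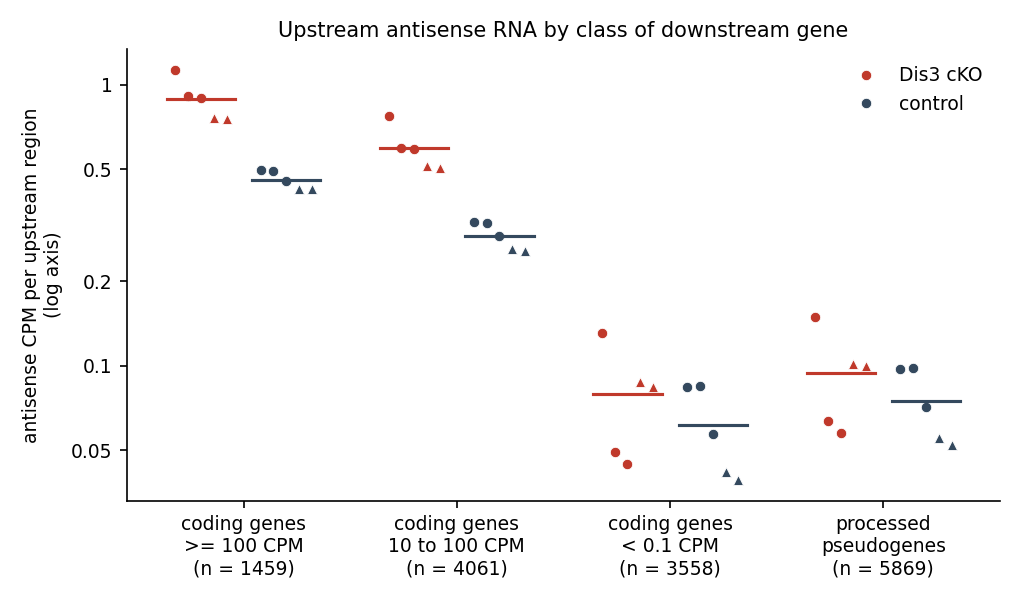
Antisense CPM per upstream region in each library, on a log axis, for 4 classes of downstream gene, with Dis3 cKO left of control. Circles are replicates 1 to 3, triangles replicates 4 and 5, and bars are group means. In the class at 100 CPM or more, and also in that at 10 to 100 CPM, every Dis3 cKO library lies above every control library. For genes under 0.1 CPM and pseudogenes the groups overlap and Dis3 cKO replicates 2 and 3 lie among the controls.

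Of the 1459 members, 1327 averaged at least 3 counts per library and were tested, 132 fell under this filter and 2 of those had no count in any library. In edgeR's quasi-likelihood test of 12345 PROMPTs at an adjusted p under 0.05, 416 members were called higher in Dis3 cKO (31.3% of those tested), against 13.6% of all PROMPTs tested. A single member was called lower, against 0.0486% of all PROMPTs tested, and 910 passed in neither direction. Every Dis3 cKO library was above every control library at 353 members (26.6%), against 11.1% of all PROMPTs tested, and no member had every Dis3 cKO library below every control library (background 0.0891%). Of the 416 called higher, 390 were at least 2-fold higher, 153 at least 4-fold and 32 at least 8-fold, with a median log2 fold change of 1.83 (0.76 to 4.83). The median over all members tested was 1.0 (1190 of 1327 above 0), and over all PROMPTs tested 0.64.

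Upstream of moderately expressed coding genes, at 10 to 100 CPM, 899 of 3276 PROMPTs tested were called higher (27.4%, 2 lower), with a median log2 fold change of 1.0. Of 886 PROMPTs tested upstream of coding genes under 0.1 CPM, 6 were called higher (0.677%, median 0.31), and of 1706 upstream of processed pseudogenes 17 were called higher (0.996%, median 0.34). The differences between these classes were not tested. The scaling of the libraries moved these counts. Scaling libraries on the PROMPT counts themselves sets the median of all PROMPTs at -0.07 in place of 0.64. It called 150 members higher (11.3% of those tested) and 16 lower, against 652 and 115 of all 12345 PROMPTs. Scaling them on the background regions upstream of processed pseudogenes sets that median at 0.35. It called 218 members higher (16.4% of those tested) and 2 lower, against 987 and 9 of all PROMPTs.

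The share of members called higher differed with the mean count and was not highest in the deepest bin. Of 488 members averaging 3 to 10 normalized counts, 22 were called higher (4.51%, median log2 fold change 0.81), of 507 at 10 to 30 counts 203 (40.0%, median 1.16), of 284 at 30 to 100 counts 171 (60.2%, median 1.08), and of 48 at 100 counts or more 20 (41.7%, median 0.51). At 3 to 10 counts an increase of the median size was seldom called. The bins are by the mean over all 10 libraries, so they are not independent of the increase in Dis3 cKO. The highest bin had the lowest median.

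**Figure D2:**
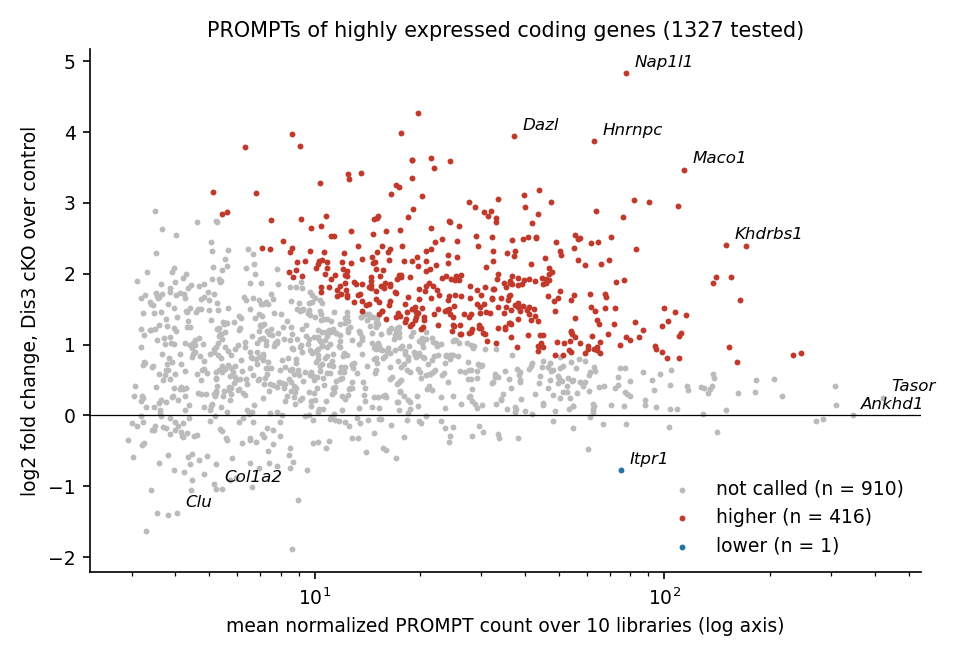
Each point is a tested member, with its mean normalized PROMPT count over 10 libraries (log axis) against the log2 fold change, Dis3 cKO over control. The 416 members called higher are red, the member called lower (Itpr1) is blue and the 910 not called are grey, and most points lie above 0 while those with the most counts, such as Tasor and Ankhd1, lie near it.

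The 10 largest increases among members called higher that averaged at least 20 normalized counts, with groups that did not overlap, lay upstream of *Nap1l1*, *Dazl*, *Hnrnpc*, *Atad2*, *Tubb4b*, *Tex10*, *Maco1*, *Ddx27*, *Psmb2* and *Mt1*. *Nap1l1* encodes a histone chaperone that assembles nucleosomes, and its region showed the largest fold change of these. Normalized PROMPT counts of *Nap1l1* were 228, 171, 165, 80.9 and 106 in Dis3 cKO replicates 1 to 5, against 2.8, 10.4, 1.68, 0.958 and 10.1 in control replicates 1 to 5. All Dis3 cKO libraries were far above the control libraries, with replicates 4 and 5 lowest among them (log2 fold change 4.83 ± 0.34 (SE), adjusted p = 1.70e-39). The gene itself had a log2 fold change of -0.13.

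*Hnrnpc* encodes a protein that binds uridine-rich stretches of nascent pre-mRNA. Its PROMPT counts were 200, 111, 119, 87.5 and 72.5 in Dis3 cKO libraries, against 7.46, 16, 3.36, 8.63 and 4.59 in control libraries, without overlap (log2 fold change 3.87 ± 0.34 (SE), adjusted p = 3.04e-26). RefSeq places *Rpgrip1* on the antisense strand over this region, so that reads of *Rpgrip1* and of a PROMPT cannot be told apart there. *Maco1*, which encodes the endoplasmic reticulum membrane protein macoilin, had the highest Dis3 cKO level of the 10. Its counts were 288, 216, 216, 173 and 155 in Dis3 cKO libraries, against 21.4, 23.6, 26, 11.5 and 11 in control libraries. The lowest Dis3 cKO library stood well above the highest control library (log2 fold change 3.47 ± 0.27 (SE), adjusted p = 3.14e-32).

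*Atad2*, a bromodomain ATPase of chromatin, held 44.4, 54.1, 41.4, 14.4 and 45.3 counts in Dis3 cKO libraries, against 5.59, 1.89, 5.04, 0.958 and 1.84 in control libraries (log2 fold change 3.64 ± 0.50 (SE), adjusted p = 5.96e-11). Dis3 cKO replicate 4 was the lowest of the 5 and still above every control. *Tubb4b*, a beta-tubulin, held 43.2, 57.9, 58.1, 35.4 and 30.6 in Dis3 cKO libraries, against 5.59, 2.83, 6.72, 0 and 2.76 in control libraries (log2 fold change 3.59 ± 0.47 (SE), adjusted p = 5.50e-12). *Tex10*, which encodes a nuclear protein of ribosome maturation, held 40.7, 44.6, 26.8, 37.7 and 52.1 in Dis3 cKO libraries, against 4.66, 2.83, 5.88, 2.88 and 0.919 in control libraries (log2 fold change 3.50 ± 0.49 (SE), adjusted p = 1.37e-10). None of these control libraries reached 10 counts. *Ddx27*, a DEAD-box helicase of ribosomal RNA processing, held 107, 83.6, 57, 85.3 and 61.1 counts in Dis3 cKO libraries, against 15.8, 5.66, 8.4, 7.67 and 5.51 in control libraries (log2 fold change 3.18 ± 0.36 (SE), adjusted p = 6.80e-16). *Psmb2*, a beta subunit of the proteasome core, held 104, 59.8, 107, 41 and 45.3 in Dis3 cKO libraries, against 5.59, 3.77, 5.04, 21.1 and 5.51 in control libraries (log2 fold change 3.11 ± 0.37 (SE), adjusted p = 2.82e-14). Control replicate 4 was the only control library of *Psmb2* above 10 counts. *Mt1*, a metallothionein that binds zinc, lay close to the gene level threshold and held 32.1, 44.6, 50.3, 27.7 and 27.2 PROMPT counts in Dis3 cKO libraries, against 0.932, 6.6, 10.9, 0.958 and 0.919 in control libraries (log2 fold change 3.10 ± 0.49 (SE), adjusted p = 2.24e-08). The gene table places a gene on the antisense strand within 5 kb of *Atad2* (Ntaq1), *Tubb4b* (Cimip2a), *Ddx27* (Gm11470) and *Mt1* (Gm45774). The part of these neighbours in the counts was not tested.

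**Figure D3:**
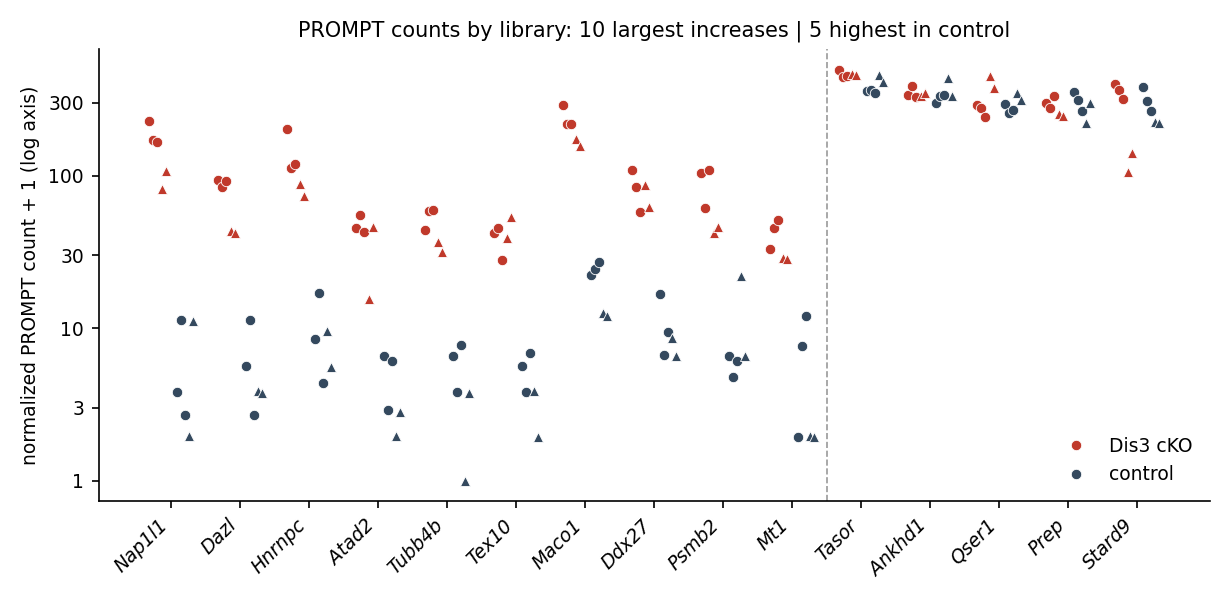
Normalized PROMPT count plus 1, on a log axis, in each library for the 10 largest increases (left of the dashed line) and the 5 members highest in control (right), with Dis3 cKO left of control at each gene. Circles are replicates 1 to 3 and triangles replicates 4 and 5, and the groups are apart at all 10 increases and overlap at the 5 members highest in control.

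Germ cells are the cells in which the Cre acts. Of 5 members on the list of germ cell genes 4 were tested and all 4 were called higher, against 31.3% of members and 13.6% of all PROMPTs tested (median log2 fold change 2.1, against 1.0 and 0.64). With the PROMPT scaling and with the background scaling 3 of the 4 were called, and 1 of 4 within replicates 4 and 5. *Dazl* encodes an RNA-binding protein that germ cells need for translation of their mRNAs. Its PROMPT counts were 92.6, 82.6, 91.7, 42.1 and 40.8 in Dis3 cKO libraries, against 4.66, 10.4, 1.68, 2.88 and 2.76 in control libraries. Every Dis3 cKO library was above every control library, with replicates 1 to 3 at about the same level and replicates 4 and 5 lower (log2 fold change 3.94 ± 0.41 (SE), adjusted p = 5.43e-19). *Dazl* mRNA averaged 148 CPM in Dis3 cKO and 247 CPM in control (log2 fold change -0.67).

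*Mael*, a factor of transposon silencing in the germ line, had 49.4, 31.3, 36.9, 21.0 and 23.8 PROMPT counts in Dis3 cKO libraries, against 5.59, 14.1, 8.40, 2.88 and 2.76 in control libraries (log2 fold change 2.24 ± 0.47 (SE), adjusted p = 5.06e-05). Its mRNA had a log2 fold change of -0.76. *Dmrt1*, a transcription factor of germ and Sertoli cells, had 77.8, 64.6, 76, 45.4 and 28.3 PROMPT counts in Dis3 cKO libraries, against 19.6, 12.3, 14.3, 9.58 and 18.4 in control libraries (log2 fold change 1.97 ± 0.36 (SE), adjusted p = 1.38e-06). *Foxo1*, a transcription factor of undifferentiated spermatogonia that other cells also express, had 35.8, 15.2, 15.6, 14.4 and 33.97 in Dis3 cKO libraries, against 5.59, 3.77, 4.20, 6.71 and 10.1 in control libraries (log2 fold change 1.90 ± 0.54 (SE), adjusted p = 0.00501). The groups did not overlap at any of the 4. *Taf7l*, a germ cell variant of a general transcription factor subunit, was the fifth member and fell under the count filter. The summed germ cell marker mRNA was lower in these Dis3 cKO libraries (554.72 to 736.32 CPM, against 808.83 to 984.38 CPM in control), and its part in these values was not tested.

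Of 17 members among Sertoli cell genes 14 were tested and 1 was called higher (7.14%, against 31.3% of members). The median log2 fold change was 0.00, turning to -0.75 with the PROMPT scaling and -0.30 with the scaling on background regions. Their regions were sparse, with a median of 5.38 normalized counts against 14.3 over all members tested and 28.1 for the germ cell list. Members at 3 to 10 counts were seldom called, as given above, but had a median log2 fold change of 0.81. Of the 14 Sertoli cell members tested, 7 were above 0. The part of depth in these values was not tested. *Clu*, a secreted chaperone among the most abundant Sertoli cell mRNAs, had 2350 CPM of gene counts in control but 6.17, 4.75, 0, 0 and 0 PROMPT counts in Dis3 cKO libraries, against 2.80, 14.1, 4.20, 0.958 and 7.35 in control libraries. The groups overlapped (log2 fold change -1.38 ± 1.09 (SE), adjusted p = 0.564). *Gata4*, a transcription factor of Sertoli and other somatic cells, had the most antisense RNA of the list not called, at 51.8, 36.1, 39.1, 58.7 and 23.8 in Dis3 cKO libraries, against 50.3, 38.6, 32.8, 23 and 34 in control libraries, with overlap (log2 fold change 0.23 ± 0.33 (SE), adjusted p = 0.83). *Ctsl*, a lysosomal protease made by Sertoli cells and others, was the member called higher, at 37, 8.55, 6.71, 13.3 and 14.7 in Dis3 cKO libraries, against 5.59, 1.89, 0, 3.83 and 0 in control libraries (log2 fold change 2.77 ± 0.74 (SE), adjusted p = 0.0024). Without Dis3 cKO replicate 1 its log2 fold change was 2.21 and its adjusted p 0.106. Neither of the 2 tested Leydig cell genes was called by edgeR or DESeq2, with 0 at an unadjusted p under 0.05. *Hsd3b1*, an enzyme of androgen synthesis, had a log2 fold change of 0.22 ± 1.06 (SE), and *Scarb1*, a lipoprotein receptor, one of -0.67 ± 0.75 (SE). The difference between the germ cell and somatic lists was not tested.

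Genes of translation were given as 2 lists. Of 33 members encoding cytosolic ribosomal proteins 31 were tested and 20 were called higher (64.5%, against 31.3% of members and 13.6% of all PROMPTs tested). With the PROMPT scaling 10 were called and with the background scaling 11, against 11.3% and 16.4% of all members tested. The median log2 fold change was 1.71, and 1.67 within replicates 1 to 3, 1.64 within replicates 4 and 5. *Rpl26*, a protein of the large subunit, had 184, 162, 142, 83.1 and 96.3 PROMPT counts in Dis3 cKO libraries, against 17.7, 13.2, 10.9, 34.5 and 19.3 in control libraries, without overlap (log2 fold change 2.80 ± 0.29 (SE), adjusted p = 2.55e-18). *Rps16*, of the small subunit, had 172, 162, 132, 103 and 125 in Dis3 cKO libraries, against 28, 31.1, 44.5, 25.9 and 6.43 in control libraries (log2 fold change 2.34 ± 0.28 (SE), adjusted p = 2.60e-14). The mRNAs themselves had log2 fold changes of -0.13 (*Rps16*) and -0.38 (*Rpl26*). *Rps3*, also of the small subunit, was not called, at 114, 67.4, 48.1, 35.4 and 30.6 in Dis3 cKO libraries, against 23.3, 21.7, 26.9, 58.5 and 73.5 in control libraries (log2 fold change 0.53 ± 0.31 (SE), adjusted p = 0.338). Its replicates split, with a log2 fold change of 1.66 within replicates 1 to 3 and -0.99 within replicates 4 and 5. Of 20 translation factors 19 were tested and 7 were called higher (36.8%, against 31.3% of members, 4 and 5 with these scalings, median 1.28). *Eif1*, which helps select the start codon, had 72.8, 43.7, 41.4, 39.9 and 27.2 in Dis3 cKO libraries, against 4.66, 6.6, 8.4, 0.958 and 13.8 in control libraries (log2 fold change 2.68 ± 0.43 (SE), adjusted p = 2.83e-08). *Eif3b*, a scaffold subunit of initiation factor eIF3, had 53.1, 46.5, 62.6, 54.3 and 51 in Dis3 cKO libraries, against 17.7, 17, 5.04, 8.63 and 18.4 in control libraries (log2 fold change 2.0 ± 0.37 (SE), adjusted p = 2.49e-06). Both were without overlap, while *Eif5*, a GTPase-activating initiation factor, overlapped and had a log2 fold change of 0.69 ± 0.33 (SE).

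Splicing factors and hnRNP proteins, many of which bind nascent RNA, formed a list of 35 members. Of these 34 were tested and 20 were called higher (58.8%, against 31.3% of members, median log2 fold change 1.69). Under the PROMPT scaling 10 were called (median 0.94) and under the background scaling 15 (median 1.41). Of all members tested these scalings called 11.3% (median 0.29) and 16.4% (median 0.74). After *Hnrnpc*, the clearest was *Khdrbs1*, which encodes the RNA-binding protein SAM68. Its PROMPT counts were 283, 238, 313, 216 and 216 in Dis3 cKO libraries, against 62.4, 42.4, 58.8, 43.1 and 32.2 in control libraries. The lowest Dis3 cKO library held over 3 times the counts of the highest control library (log2 fold change 2.40 ± 0.24 (SE), adjusted p = 1.33e-20). *Hnrnpab* was not called, with 44.4, 27.5, 29.1, 57.6 and 24.9 in Dis3 cKO libraries, against 16.8, 17, 36.1, 30.7 and 11 in control libraries (log2 fold change 0.71 ± 0.37 (SE), adjusted p = 0.253). Among 45 members encoding chromatin proteins 42 were tested and 18 were called higher (42.9%, against 31.3% of members, median 1.29). The count was 5 of 42 with the PROMPT scaling and 10 of 42 with the background scaling, against 11.3% and 16.4% of all members tested. *Chd4*, the remodelling ATPase of the NuRD complex, had 202, 142, 91.7, 70.9 and 55.5 in Dis3 cKO libraries, against 16.8, 23.6, 17.6, 10.5 and 7.35 in control libraries, without overlap (log2 fold change 2.88 ± 0.31 (SE), adjusted p = 3.90e-17). *Dnmt3a*, a de novo DNA methyltransferase, had 419.7, 310.5, 316, 384 and 327 in Dis3 cKO libraries, against 266, 283, 251, 285 and 237 in control libraries. Its groups did not overlap either, but the change of 0.41 ± 0.19 (SE) did not pass edgeR's test (adjusted p = 0.151), while it passed in DESeq2 (adjusted p = 0.0167).

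Of 20 cell cycle and replication genes 19 were tested and 9 were called higher (47.4%, against 31.3% of members, median log2 fold change 1.36). The count was 3 of 19 with the PROMPT scaling and 3 of 19 with the background scaling, against 11.3% and 16.4% of all members tested. *Top1*, the topoisomerase that relaxes DNA ahead of polymerases, had 38.3, 38.9, 34.7, 43.2 and 56.6 PROMPT counts in Dis3 cKO libraries, against 5.59, 6.6, 9.24, 2.88 and 6.43 in control libraries (log2 fold change 2.75 ± 0.44 (SE), adjusted p = 3.31e-08). *Cdk12*, a kinase of the RNA polymerase II tail, had 169, 130.1, 102, 75.3 and 70.2 in Dis3 cKO libraries, against 28, 15.1, 14.3, 13.4 and 29.4 in control libraries (log2 fold change 2.44 ± 0.30 (SE), adjusted p = 2.91e-13). *Mcm5*, a subunit of the replicative helicase, overlapped between the groups and was not called (log2 fold change 1.01 ± 0.42 (SE), adjusted p = 0.0976). Of 36 genes of ubiquitin and the proteasome 35 were tested and 12 were called higher (34.3%, near the 31.3% of members, 3 and 7 with these scalings, median 1.30). *Psmd4*, a ubiquitin receptor of the proteasome, had 135, 78.8, 92.8, 60.9 and 53.2 in Dis3 cKO libraries, against 26.1, 17, 6.72, 24.9 and 9.19 in control libraries (log2 fold change 2.32 ± 0.33 (SE), adjusted p = 1.63e-10). *Usp34*, a deubiquitinase, had 217, 155, 151, 156 and 146 in Dis3 cKO libraries, against 96, 97.1, 122.6, 141 and 94.6 in control libraries, without overlap but short of edgeR's threshold (log2 fold change 0.58 ± 0.23 (SE), adjusted p = 0.0779). DESeq2 called it (adjusted p = 0.0132), as it did *Mcm5* (adjusted p = 0.0448).

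Of 19 chaperones 18 were tested and 8 were called higher (44.4%, against 31.3% of members, median log2 fold change 1.33). The count was 2 of 18 with the PROMPT scaling and 3 of 18 with the background scaling, near the 11.3% and 16.4% of all members tested. *Cct4*, a subunit of the TRiC chaperonin that folds actin and tubulin, had 76.5, 57.9, 51.4, 49.8 and 46.4 in Dis3 cKO libraries, against 7.46, 10.4, 7.56, 7.67 and 4.59 in control libraries (log2 fold change 2.89 ± 0.40 (SE), adjusted p = 5.26e-11). *Ppib*, a prolyl isomerase of the secretory pathway, averaged 57.2 ± 13.7 in Dis3 cKO and 15.3 ± 4.84 in control libraries (SD, n = 5 each), without overlap (log2 fold change 1.90 ± 0.36 (SE), adjusted p = 3.76e-06). *Bag6*, a chaperone of membrane proteins, averaged 98.8 ± 17.2 in Dis3 cKO and 90.7 ± 22 in control libraries (SD, n = 5 each) and was not called (log2 fold change 0.12 ± 0.25 (SE), adjusted p = 0.89). Of 7 glycolytic genes 5 were tested and 3 were called higher (60.0%, against 31.3% of members, 1 with either scaling, median 1.24). *Pgam1*, phosphoglycerate mutase, had 107, 77.9, 62.6, 45.4 and 62.3 in Dis3 cKO libraries, against 10.3, 17, 12.6, 0.958 and 4.59 in control libraries (log2 fold change 2.95 ± 0.37 (SE), adjusted p = 3.08e-13). *Eno1*, enolase, averaged 51 ± 11.8 in Dis3 cKO and 18.6 ± 6.83 in control libraries (SD, n = 5 each), without overlap (log2 fold change 1.45 ± 0.36 (SE), adjusted p = 7.53e-04), a call lost with the PROMPT scaling (0.71, adjusted p = 0.319) and the background scaling (1.14, adjusted p = 0.123), and *Hk2*, hexokinase, was not called (log2 fold change 1.16 ± 0.59 (SE), adjusted p = 0.228). Of 10 genes of oxidative phosphorylation 9 were tested and 3 were called higher (33.3%, near the 31.3% of members, median 0.90). In edgeR 0 were called with the PROMPT scaling (median 0.13, 1 at an unadjusted p under 0.05) and 0 with the background scaling (median 0.54, 3 at an unadjusted p under 0.05). *Cox5b*, a subunit of cytochrome oxidase, averaged 25.7 ± 10.4 in Dis3 cKO and 7.14 ± 4.59 in control libraries (SD, n = 5 each), with overlap (log2 fold change 1.83 ± 0.50 (SE), adjusted p = 0.00358). *Atp5me*, a subunit of the ATP synthase, averaged 19.12 ± 3.4 in Dis3 cKO and 5.52 ± 3.08 in control libraries (SD, n = 5 each), without overlap (log2 fold change 1.77 ± 0.58 (SE), adjusted p = 0.0202). The calls of *Cox5b* and *Atp5me* were lost with the PROMPT scaling (adjusted p = 0.224 and 0.347) and the background scaling (adjusted p = 0.0533 and 0.104). For *Atp5me* the adjusted p was 0.0808 without Dis3 cKO replicate 2, 0.0542 without Dis3 cKO replicate 3 and 0.071 without control replicate 1. *Ndufa6*, a subunit of complex I, was not called (log2 fold change 0.53 ± 0.23 (SE), adjusted p = 0.124).

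Of 38 cytoskeletal members 33 were tested and 6 were called higher (18.2%, against 31.3% of members). The median log2 fold change of 0.59 turned to -0.06 with the PROMPT scaling. *Dynll2*, a dynein light chain, had 39.5, 35.1, 22.4, 22.2 and 31.7 PROMPT counts in Dis3 cKO libraries, against 8.39, 5.66, 0.84, 4.79 and 4.59 in control libraries, without overlap (log2 fold change 2.62 ± 0.51 (SE), adjusted p = 9.72e-06). *Capzb*, which caps actin filaments, averaged 50.9 ± 20.9 in Dis3 cKO and 70.4 ± 19.4 in control libraries (SD, n = 5 each), with overlap (log2 fold change -0.47 ± 0.29 (SE), adjusted p = 0.39). Of 36 members of the extracellular matrix and its adhesion 24 were tested and 2 were called higher (8.33%, against 31.3% of members). The median of 0.72 turned to -0.02 with the PROMPT scaling. *Sdc4*, a cell-surface proteoglycan, had 38.3, 30.4, 24.6, 17.7 and 26 in Dis3 cKO libraries, against 2.8, 9.43, 6.72, 3.83 and 12.9 in control libraries (log2 fold change 1.92 ± 0.49 (SE), adjusted p = 0.00141). *Efemp2*, which helps form elastic fibres, had 13.6, 15.2, 21.2, 29.9 and 4.53 in Dis3 cKO libraries, against 2.8, 5.66, 0.84, 3.83 and 0 in control libraries, so that the fifth Dis3 cKO library lay among the controls (log2 fold change 2.65 ± 0.70 (SE), adjusted p = 0.00221). The call of *Sdc4* was lost with the PROMPT scaling (1.17, adjusted p = 0.163) and the background scaling (1.6, adjusted p = 0.0507), and that of *Efemp2* with the PROMPT scaling (2.01, adjusted p = 0.0582). *Lamb1*, a laminin chain, was not called (log2 fold change 0.36 ± 0.26 (SE), adjusted p = 0.49). *Col1a2*, a chain of collagen I with 1320 CPM of gene counts in control, had a mean of 3.39 ± 1.45 PROMPT counts in Dis3 cKO and 7.04 ± 8.70 in control (SD, n = 5 each), with overlap. The matrix list had a median of 7.82 normalized PROMPT counts and the cytoskeletal list 10.4, against 14.3 over all members tested, and the differences between lists were not tested. The summed stromal markers were 4210 to 8213 CPM in Dis3 cKO and 3556 to 5615 CPM in control, and their part in these values was not tested.

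Of 22 transcription factors and signalling genes 20 were tested and 4 were called higher (20%, against 31.3% of members). The median log2 fold change of 0.69 turned to -0.08 with the PROMPT scaling. *Nfix*, a nuclear factor I protein, had 244, 147, 133, 107 and 109.8 PROMPT counts in Dis3 cKO libraries, against 59.6, 49.96, 67.2, 55.6 and 25.7 in control libraries, without overlap (log2 fold change 1.52 ± 0.26 (SE), adjusted p = 1.55e-07). The call was lost with the PROMPT scaling (0.77, adjusted p = 0.0596). Its mRNA had a log2 fold change of 0.54. *Cited2*, a transcriptional coregulator, had 49.4, 38.9, 28, 36.6 and 3.4 in Dis3 cKO libraries, against 8.39, 9.43, 4.2, 3.83 and 8.27 in control libraries, with the fifth Dis3 cKO library below every control (log2 fold change 2.18 ± 0.48 (SE), adjusted p = 1.13e-04). *Tcf12*, a basic helix-loop-helix factor, averaged 153 ± 17 in Dis3 cKO and 146 ± 31.1 in control libraries (SD, n = 5 each) and was not called (log2 fold change 0.07 ± 0.23 (SE), adjusted p = 0.934). None of 5 imprinted members tested was called by edgeR or DESeq2 (at an unadjusted p under 0.05, 0 in edgeR and 1 in DESeq2), and *Dcn*, the matrix proteoglycan decorin, had the most counts of these (log2 fold change 0.85 ± 0.45 (SE), adjusted p = 0.259). In edgeR's test, members in none of the lists numbered 1111, of which 1015 were tested. Of these 299 were called higher (29.5%, near the 31.3% of all members tested) and 1 lower (median 0.97).

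**Figure D4:**
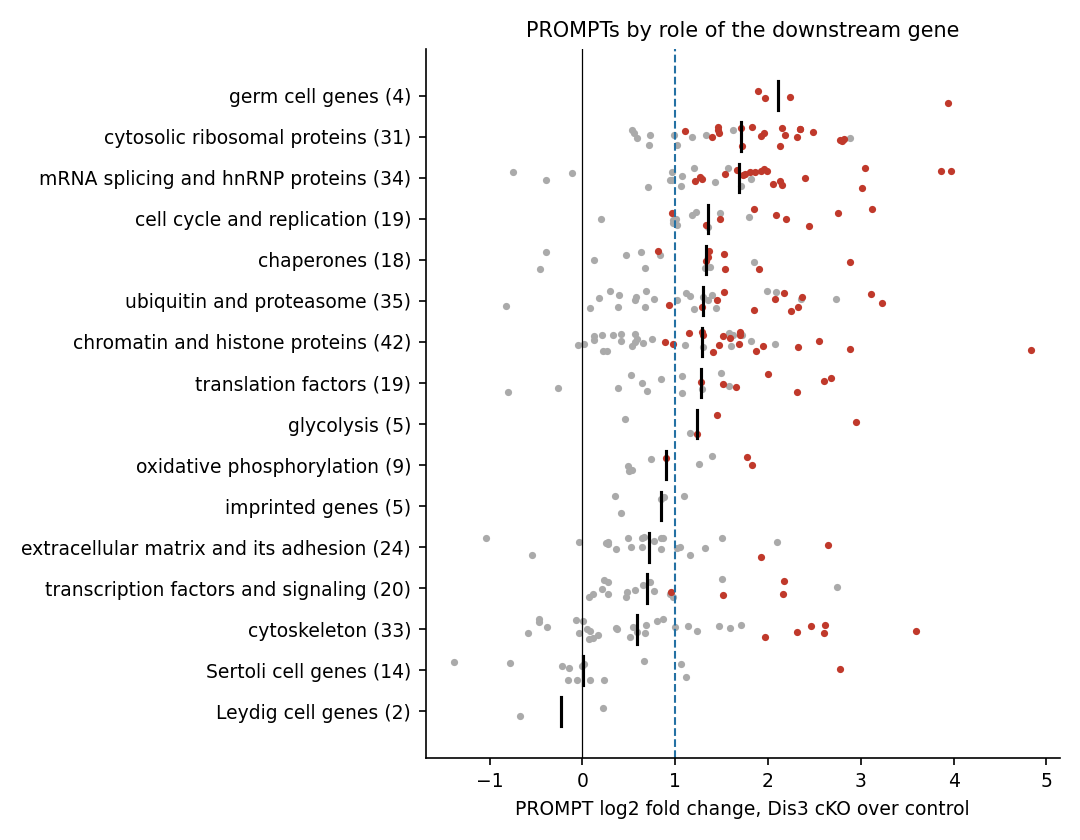
Log2 fold change of each tested member PROMPT, Dis3 cKO over control, by the role of its downstream gene, with the number tested in parentheses. Red points were called higher, grey points were not, black ticks are list medians and the dashed line is the median of all members tested (1.0). Medians right of it were those of germ cell (2.1), ribosomal (1.71), splicing (1.69), cell cycle (1.36), chaperone (1.33), ubiquitin (1.30), chromatin (1.29), translation factor (1.28) and glycolytic genes (1.24). Sertoli cell genes had a median of 0.00, with points from -1.38 to 2.77, and the 2 Leydig cell genes one of -0.23.

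None of the 5 members with most antisense RNA in control testes was called by edgeR or DESeq2, with 0 at an unadjusted p under 0.05 in edgeR. They were chosen by the same control counts that enter the fold change. That choice can lower the fold change, so their values and calls are a description only. With the PROMPT scaling, which lowers the median of all PROMPTs to -0.07, *Ankhd1* (-0.72, adjusted p = 0.0124), *Prep* (-0.74, adjusted p = 0.0141) and *Stard9* (-0.78, adjusted p = 0.00901) were called lower. *Tasor*, a subunit of the HUSH silencing complex, had 492, 439.6, 445, 462 and 457 normalized PROMPT counts in Dis3 cKO libraries, against 359.7, 360.1, 345, 452 and 411 in control libraries. The groups overlapped (log2 fold change 0.25 ± 0.17 (SE), adjusted p = 0.465). *Ankhd1*, an ankyrin repeat and KH domain protein, averaged 346 ± 22.2 in Dis3 cKO and 346 ± 50.7 in control libraries (SD, n = 5 each), with a log2 fold change of -0.00 ± 0.18 (SE). *Prep*, prolyl endopeptidase, averaged 280.4 ± 34.7 in Dis3 cKO and 289.6 ± 50.4 in control libraries (SD, n = 5 each), with a log2 fold change of -0.05 ± 0.19 (SE). *Qser1*, which keeps developmental promoters from DNA methylation, had 288, 276, 242, 446 and 374 in Dis3 cKO libraries, against 293, 255, 267, 344 and 311 in control libraries (log2 fold change 0.14 ± 0.19 (SE), adjusted p = 0.798). RefSeq places genes on the antisense strand over the regions of *Tasor* (Gm52095) and *Qser1* (2310047K21Rik and Gm39898), so that their reads are not set apart from PROMPT reads. *Stard9*, a mitotic kinesin, had 397, 365, 316, 104 and 140.4 PROMPT counts in Dis3 cKO libraries, against 377, 307, 265, 223 and 221 in control libraries. Its Dis3 cKO replicates 4 and 5 were below every control and replicates 1 to 3 among or above them, and within replicates 4 and 5 alone it was called lower at -0.85, adjusted p = 0.0441 (all libraries log2 fold change -0.07 ± 0.20 (SE), adjusted p = 0.916). Its mRNA averaged 183 CPM in Dis3 cKO and 108 CPM in control. The 10 highest members held 7.035% of the summed member counts in Dis3 cKO and 11.02% in control, and 79 members averaged at least 100 normalized counts in Dis3 cKO against 29 in control.

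The member called lower was *Itpr1*, the inositol trisphosphate receptor of the endoplasmic reticulum. It had 54.3, 36.1, 38, 70.9 and 78.1 PROMPT counts in Dis3 cKO libraries, against 75.5, 101, 52.1, 136 and 109 in control libraries. The groups overlapped, with Dis3 cKO replicates 1, 4 and 5 above control replicate 3 (log2 fold change -0.77 ± 0.27 (SE), adjusted p = 0.0381). The call was lost without Dis3 cKO replicate 2 or 3 or control replicate 2, 4 or 5, at adjusted p of 0.169, 0.152, 0.0746, 0.219 and 0.101 in that order. RefSeq has Gm38872 on the antisense strand over this region. By unadjusted p under 0.05 in edgeR, 598 of the 1327 members tested were higher and 2 lower. DESeq2 called 483 members higher (36.4%) and 2 lower, against 1965 and 8 of all 12345 PROMPTs.

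PROMPT changes were spread over all levels of the downstream gene. Of 861 members at 100 to 200 gene CPM 774 were tested and 225 called higher (29.1%, median log2 fold change 1.0). Of 411 at 200 to 400 CPM 383 were tested and 136 called higher (35.5%, median 1.05). Of 187 at 400 CPM or more 170 were tested and 55 called higher (32.4%, median 0.85). The share over all members tested was 31.3%. Across the 1327 tested members, Spearman's rho between the PROMPT log2 fold change and the control gene CPM was 0.022. Between control PROMPT count and control gene CPM it was 0.085 across all 1459 members. These are genes in the same libraries, which are not independent replicates. At the threshold itself, *Wtap* and *Pik3ca*, both at 100 CPM when rounded, were the members just inside, with PROMPT log2 fold changes of -0.60 and 1.39. *Alms1* (99.95 CPM) and *Tox* (99.91 CPM) were just outside, with 2.06 and 0.23.

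Fold changes of the downstream genes were small. Over tested members the median log2 fold change of the gene was 0.05, and over the 416 with a PROMPT called higher it was 0.01 (quartiles -0.10 and 0.14), with 198 of the 416 below 0. Beyond 0.5 in either direction were 5 of them, namely *Dazl* (-0.67), *Mael* (-0.76), *Lrp1* (0.76), *Rere* (0.54) and *Nfix* (0.54). *Lrp1* encodes an endocytic receptor and *Rere* a transcriptional corepressor. Across the 1327 tested members, Pearson's r between the PROMPT and gene log2 fold changes was -0.193 and Spearman's rho -0.194. These are values across genes that share libraries and scaling.

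**Figure D5:**
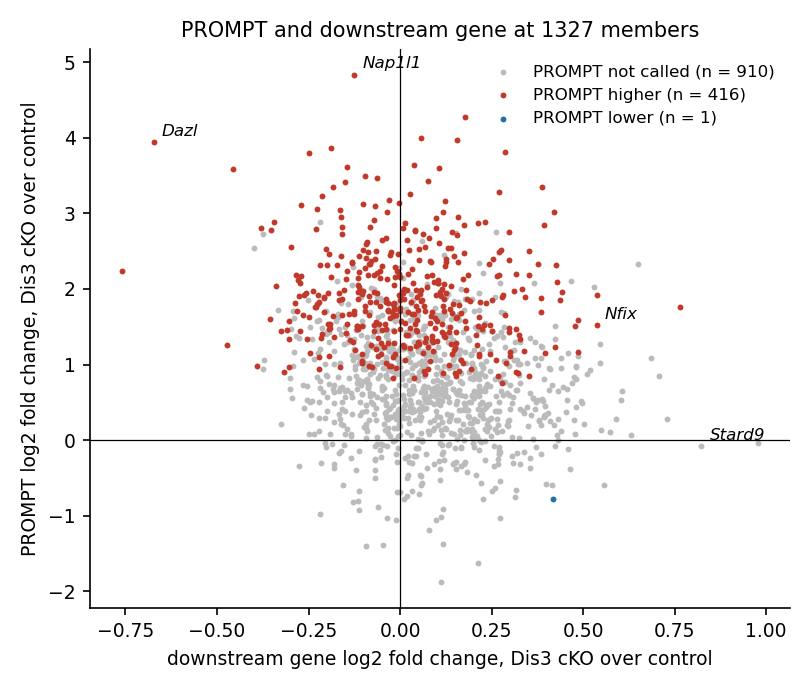
Log2 fold change of the downstream gene (x) against that of its PROMPT (y), both Dis3 cKO over control, for 1327 tested members coloured by the PROMPT's call. Red points spread from below 1 to 4.83 on the y axis while most lie within 0.5 of 0 on the x axis, with Dazl at the upper left.

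Few members lay beside a gene on the antisense strand. The gene table places a gene on the antisense strand within 5 kb of 196 members, of which 179 were tested and 65 called higher (36.3%, median log2 fold change 1.01). These 196 also include *Efemp2* (Ctsw), *Ppib* (Snx22), *Hnrnpab* (Phykpl) and *Bag6* (Apom). Of the other 1263 members 1148 were tested and 351 called higher (30.6%, median 1.0). RefSeq places a gene on the antisense strand over 124 member regions, of which 120 were tested and 41 called higher (34.2%, median 0.79). Besides the regions given above, these include *Cdk12* (Gm38963), *Atp5me* (Gm34319) and *Lamb1* (Gm32899). Of the 1335 without 1207 were tested and 375 called higher (31.1%, median 1.02). These differences were not tested. In 1406 of the 1459 members the region ended exactly at the gene start of the gene table, and 2 pairs of neighbouring member regions overlapped and shared reads. The libraries of replicates 1 to 3 alone called 395 of 1348 members higher (median 0.97), and those of replicates 4 and 5 alone, with 2 libraries a group, called 111 of 1248 higher and 1 lower (median 1.07).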

How the data were processed

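Upstream, the authors used cutadapt for trimming, HISAT2 for alignment and featureCounts 1.6.4 for counting. Libraries came from a TECAN stranded total RNA kit with ribosomal RNA depletion. The deposited values are raw counts, in a gene table on the GENCODE M18 annotation and in a PROMPT table of 30166 regions of 3000 bases, each upstream of a gene start, counted on the opposite strand and picked by the authors not to overlap another annotated gene. The labels give GRCm38.p5, while the study's methods name a later build and annotation, so coordinates are those of the tables. Symbols and biotypes came from GENCODE M39 by gene ID, which matched 50129 of 54232 genes (98.96% of gene counts) and 28745 of 30166 PROMPTs. Promoter sequences are RefSeq's on GRCm38.p6.

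Counts were tested with edgeR 4.0.16 (quasi-likelihood, R 4.3.3) as Dis3 cKO over control with no other term. Library sizes and TMM factors came from the gene counts, PROMPTs averaging at least 3 counts per library were kept, and p-values were adjusted over all 12345 PROMPTs tested (two-sided, threshold 0.05). SE is the log2 fold change divided by the square root of F. Normalized counts are counts divided by the scaled library size and set to the mean of all 10 libraries. Scripts were tested on simulated counts. The alternatives were DESeq2 1.42.0, other scalings, filters and thresholds, subsets of replicates and leaving out each library. The labels give each library as a separate sample, and p-values measure the spread between these mice.

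Members, lists and named members were chosen with earlier results of these data known. Named were the 10 largest increases (mean of at least 20 normalized counts, groups apart), decreases, the 5 members highest in control, up to 2 called members and 1 not called per list, and the 4 regions nearest the threshold. *Clu*, *Col1a2*, *Mael*, *Foxo1*, *Hsd3b1*, *Taf7l*, *Lrp1* and *Rere* were named after their values were seen. Lists are not independent of each other or of the study's aims.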

Additional observations from a re-analysis of the deposited data

Results flagged for a closer look

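Dixon's criterion was applied to 118 sets of 5 libraries. These were the named regions, with *Alms1* and *Tox* just under the threshold, and the summed CPM of members and of pseudogene regions. In 7 sets (5.93%) a library lay far from the other 4, and chance alone flags about 1 in 20. In each, the highest library stood apart. In Dis3 cKO these were *Ctsl*, at 37.0 normalized PROMPT counts in replicate 1 with the next at 14.7, and *Usp34*, at 217 in replicate 1 with the next at 156. In control they were *Ddx27*, at 15.8 in replicate 1 with the next at 8.40, *Psmb2*, at 21.1 in replicate 4 with the next at 5.59, *Bag6*, at 129 in replicate 4 with the next at 85.8, *Capzb*, at 104 in replicate 4 with the next at 67.9, and *Wtap*, at 37.4 in replicate 4 with the next at 17.9. Dis3 cKO replicate 1 was also the library with the most reads upstream of processed pseudogenes, and its part in these values was not tested.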

How the results depend on the processing

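The number of members called higher, 416 in the main test, was 111 of 1248 tested with replicates 4 and 5 alone, 150 with the PROMPT scaling and 218 with the background scaling, while thresholds of 50 and 200 gene CPM gave 785 of 2522 and 191 of 553 members. The count of members called lower was 1 in the main test, 2 with DESeq2, 16 with the PROMPT scaling, 2 with the background scaling, 2 at 50 CPM, and 0 with no filter, with replicates 1 to 3 alone, at 200 CPM, at a fold of at least 2 and without members under a RefSeq gene on the antisense strand (an alternative chosen after seeing the data). The median log2 fold change of 1.0 was 0.29 with the PROMPT scaling and 0.74 with the background scaling, and the ratio of summed CPM was 1.18 with the PROMPT scaling. Over all PROMPTs the scalings on PROMPTs and on background regions gave 652 higher and 115 lower, and 987 higher and 9 lower, against 1673 and 6. Leaving out each library in turn gave 344 to 423 members higher, 0 to 2 lower, medians of 0.88 to 1.06, ratios of 1.82 to 2.02 and log2 fold changes of -1.67 to -1.58 for *Dis3*. After each gene's log CPM was centred on its group's mean, same-numbered libraries of the groups correlated at 0.096, 0.083, 0.183, 0.182 and 0.135. Not every library correlated best with its own number, so the numbers were not taken as pairs. These correlations were positive within replicates 1 to 3 and within replicates 4 and 5, and negative between the clusters. Taking the replicate cluster as a term called 456 members higher and 1 lower. With the replicate block 423 members were called higher and 1 lower, and *Dnmt3a* (adjusted p = 0.0448), *Usp34* (0.0209), *Ndufa6* (0.0402) and *Pik3ca* (0.0302) gained the call.

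Directions turned at members that were not called. With the PROMPT scaling the log2 fold change was -0.04 at *Hnrnpab*, -0.17 at *Usp34*, -0.32 at *Rps3*, -0.23 at *Ndufa6*, -0.32 at *Dnmt3a*, -0.39 at *Lamb1*, -0.48 at *Tasor* and *Gata4*, -0.58 at *Qser1*, -0.62 at *Bag6* and -0.68 at *Tcf12*. With the background scaling it was -0.06 at *Tasor*, -0.02 at *Gata4*, -0.21 at *Qser1*, -0.20 at *Bag6* and -0.28 at *Tcf12*. Replicates 1 to 3 alone gave -0.02 at *Qser1*, 0.11 at *Ankhd1*, 0.18 at *Stard9* and 0.01 at *Capzb*, and replicates 4 and 5 alone gave -0.99 at *Rps3*, -0.27 at *Bag6* and -0.25 at *Tcf12*. *Ankhd1* was at 0.01 with DESeq2 and with the replicate block, at 0.00 with the replicate cluster as a term, and at -0.05 to 0.09 without single libraries, where *Prep* was at -0.13 to 0.03 and *Stard9* at -0.27 to 0.13. The causes were not tested. Over all alternatives and named regions, 939 values kept direction and side of the threshold, 37 lost the call, 32 gained it and 34 turned.

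Depth limits the members under 10 normalized counts, and a replicate cluster with 2 libraries a group limits the counts of calls within it.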
